A study of Mus musculus with 37 samples.

Results

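The genes described here are 33 cardiac ion channel and conduction genes, measured by bulk RNA-seq in mouse hearts at embryonic stage E10.5. They were taken by symbol from the deposited count table, and all 33 were found among its 25239 gene rows. They comprise pore-forming subunits of voltage-gated, inward rectifier and background channels, the auxiliary subunits of those channels, 2 gap junction genes and the pacemaker transcription factor gene Shox2. The rule uses gene names only and no measured value, but the members were chosen with earlier results of these data known. The counts of members called below are therefore not those of a list drawn blind.

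The hearts came from a cross of males carrying Stra8-iCre and one Nipbl Flox allele with females carrying the Isl1 Cre allele. Stra8-iCre is active in the male germ line, so the sperm carried either the Flox allele, which acts as wild-type, or the null allele called FIN. The Isl1 Cre allele has a recombinase in place of one working Isl1 copy. The 4 genotypes were wild-type (Nipbl +/+; Isl1 +/+, n = 10), Isl1_het (Isl1 +/-, n = 9), Nipbl_het (Nipbl +/-, n = 9) and double_het (Nipbl +/-; Isl1 +/-, n = 9). Embryos of all 4 genotypes therefore had the same kind of parents, and the Isl1_het and double_het embryos also carried the Cre allele. Whether its recombinase acted on an inherited Flox allele in those hearts was not tested. Whether a library holds 1 heart or several pooled hearts is not given in the sources used here, so p-values measure the spread between libraries. The libraries fall into sets 1, 2, 5, 6 and 7, which are the numbers written after IVF in the labels, and only sets 2, 5 and 6 hold all 4 genotypes. Set 1 holds 3 wild-type and 3 Isl1_het libraries and none heterozygous for Nipbl. Ranges, medians and counts of libraries by genotype below are not adjusted for set and so mix genotype with set. The study asks how loss of one copy of Nipbl, which loads cohesin onto chromatin, combines with loss of one copy of Isl1, a transcription factor of cardiac progenitors and of the sinoatrial node.

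The heartbeat starts in pacemaker cells, where HCN channels and T-type and L-type calcium channels depolarise the membrane between beats. Sodium and calcium channels carry the upstroke and plateau of the action potential, several classes of potassium channel repolarise it, and gap junctions pass the current from cell to cell. In the embryonic heart these genes are still being regionalised: Shox2 and Hcn4 mark the inflow tract where the sinoatrial node forms, while working myocardium acquires fast-conducting connexins and a stable resting potential.

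The libraries held 23.4 to 51 M counted reads (median 36.2 M). Nipbl, the targeted gene, was at 60.0 ± 10.1 counts per 1000000 counted reads (CPM; SD, n = 10) in wild-type, 61.5 ± 5.88 in Isl1_het (n = 9), 39.3 ± 13.8 in Nipbl_het (n = 9) and 38.1 ± 7.41 in double_het (n = 9). The library labelled Nipbl_het replicate 2 went against its label, with Nipbl at 72.4 CPM, and without it the Nipbl_het mean was 35.2 CPM. That library also stood apart over all genes, at 114 on the leading principal component, where the next highest library was at 21. It is kept in the results below. Without it the members past the threshold were 5 in Nipbl_het against wild-type (2.72% of all genes passed in that fit), 5 in double_het against wild-type (5.57%), 5 in double_het against Isl1_het (2.40%) and 7 for the averaged effect of Nipbl (6.93%). Isl1 mRNA was at 7.37 ± 2.24 CPM in wild-type, 6.28 ± 1.76 in Isl1_het, 13.0 ± 2.82 in Nipbl_het and 9.49 ± 3.51 in double_het, where 7 of 9 libraries were above the wild-type mean although the label gives 1 working copy. The counts cannot tell the working allele from transcript of the Cre allele. Set number had an effect on 5745 of the 15046 genes tested (38.2%) and on 15 of the 33 members, and it was a term in the fits below except where another setting is named. The heart markers were present in every library: the summed level of 7 pan-cardiomyocyte genes was between 19266 and 30174 CPM.

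All 33 members passed the filter on low counts. Levels between genes were compared as reads per kilobase of exon scaled to library size (RPKM), from the exon lengths of GENCODE M21. In wild-type hearts 8 members averaged at least 10 RPKM, 15 lay from 1 to 10 RPKM and 10 lay under 1 RPKM. Among the 24366 genes of the table with an annotated length, 24 of the 33 members were above the median level. Kcnh2, the pore of the rapid delayed rectifier, was the highest at 30.6 ± 3.74 RPKM (SD, n = 10). It was followed by Cacna2d2, an alpha2-delta calcium channel subunit, at 25.5 ± 5.10 RPKM and by Kcnj5, a subunit of the acetylcholine-activated potassium channel, at 25.1 ± 2.84 RPKM. Each of these neighbours in the order differed by no more than the larger SD of the pair, while Kcnh2 lay above Kcnj5 by more than either SD. Across the whole order the gap to the next member was larger than that SD in 6 of 32 neighbouring pairs, for example between Kcnj5 and Kcnk3. The lowest members were Scn3b at 0.0561 ± 0.0303 RPKM and Cacnb4 at 0.0513 ± 0.0245 RPKM, with at most 40 and 66 reads in any of the 37 libraries. Their values are accordingly coarse.

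**Figure D1:**
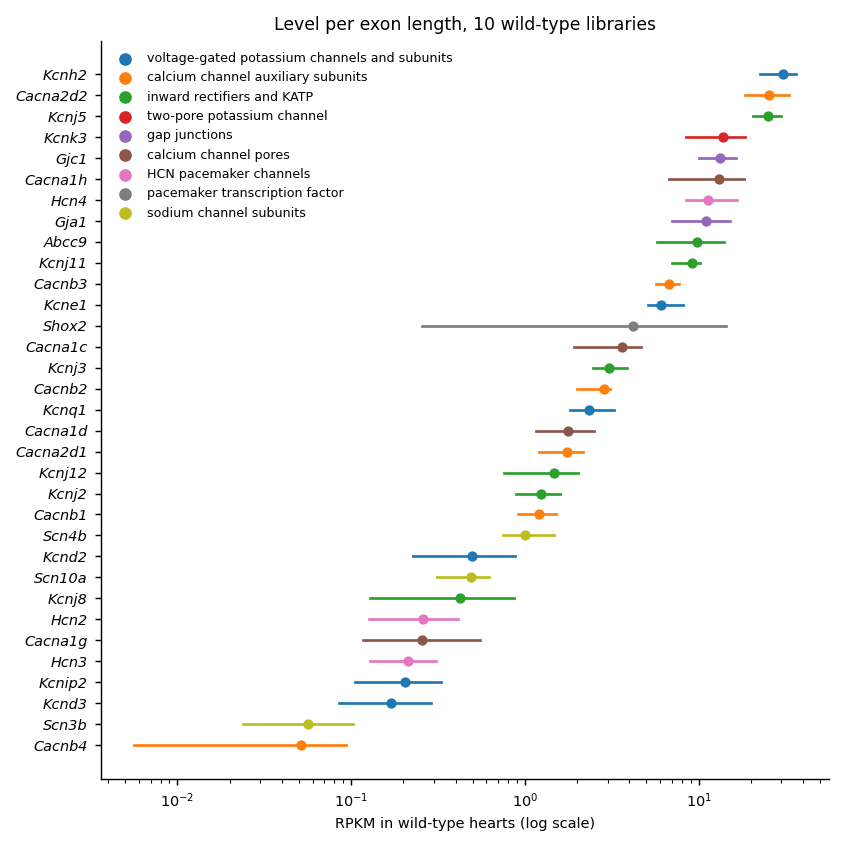
Level of each of the 33 genes in wild-type hearts, in RPKM on a log scale, coloured by role; points are means over 10 libraries and lines run from the lowest to the highest library. Kcnh2 at 30.6 RPKM leads and Cacnb4 at 0.0513 RPKM is last, and Shox2 has the longest line on this log scale.

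Against wild-type, 4 of the 33 members changed in Nipbl_het hearts and 5 in double_het hearts. Cacnb3, Kcne1 and Kcnj3 rose in both comparisons, which share the wild-type libraries. Gja1 fell in Nipbl_het, while Scn10a and Kcnj8 rose in double_het. The test was edgeR's quasi-likelihood test with Benjamini-Hochberg adjustment over all 15046 genes and a threshold of 0.05. Over all genes the same test called 1.71% in Nipbl_het (1.20% higher and 0.518% lower) and 2.60% in double_het (1.77% higher and 0.824% lower). The members' median log2 change was 0.17 in Nipbl_het and -0.02 in double_het, beside all-gene medians of 0.01 and -0.00. Without Nipbl_het replicate 2 the members' medians were 0.11 and -0.03. In Isl1_het hearts 0 of 33 members passed, as did 0% of all genes. There, 4 members and 886 genes (5.89%) had an unadjusted p under 0.05, and DESeq2 also called 0 members. The share of all genes called by DESeq2 is not given beside this count or the DESeq2 counts of 0 below. The Isl1_het members' median log2 change was 0.07.

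The effect of Nipbl averaged across the Isl1 genotypes called 6 members, in a background of 4.02% of all genes. Scn10a, Cacnb3, Kcne1 and Kcnj3 were higher (2.67% of all genes were) and Gja1 and Kcnd2 were lower (1.36% of all genes were). The members' median log2 change was 0.03 and that of all genes 0.01. The corresponding effect of Isl1 averaged over the Nipbl genotypes called 0 members in a background of 0.173% (0.146% higher and 0.0266% lower), with 4 members and 12.2% of all genes at an unadjusted p under 0.05 and 0 members called by DESeq2. Double_het against Isl1_het called Cacnb3 higher and Kcnd2 lower, in a background of 0.957% (0.532% higher and 0.425% lower). Double_het against Nipbl_het called 0 members in a background of 0%, with 6 members and 9.01% of all genes at an unadjusted p under 0.05, and 0 members by DESeq2. The interaction, which asks whether the double heterozygote departs from the sum of the single log2 changes, called 0 members in a background of 0%, with 3 members and 2.73% of all genes at an unadjusted p under 0.05, and 0 members by DESeq2. No difference between the Nipbl change on the wild-type and on the Isl1_het background was therefore detectable for any member. In whole hearts, fewer cells of a type and less RNA per cell cannot be told apart, which holds for every change below.

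**Figure D2:**
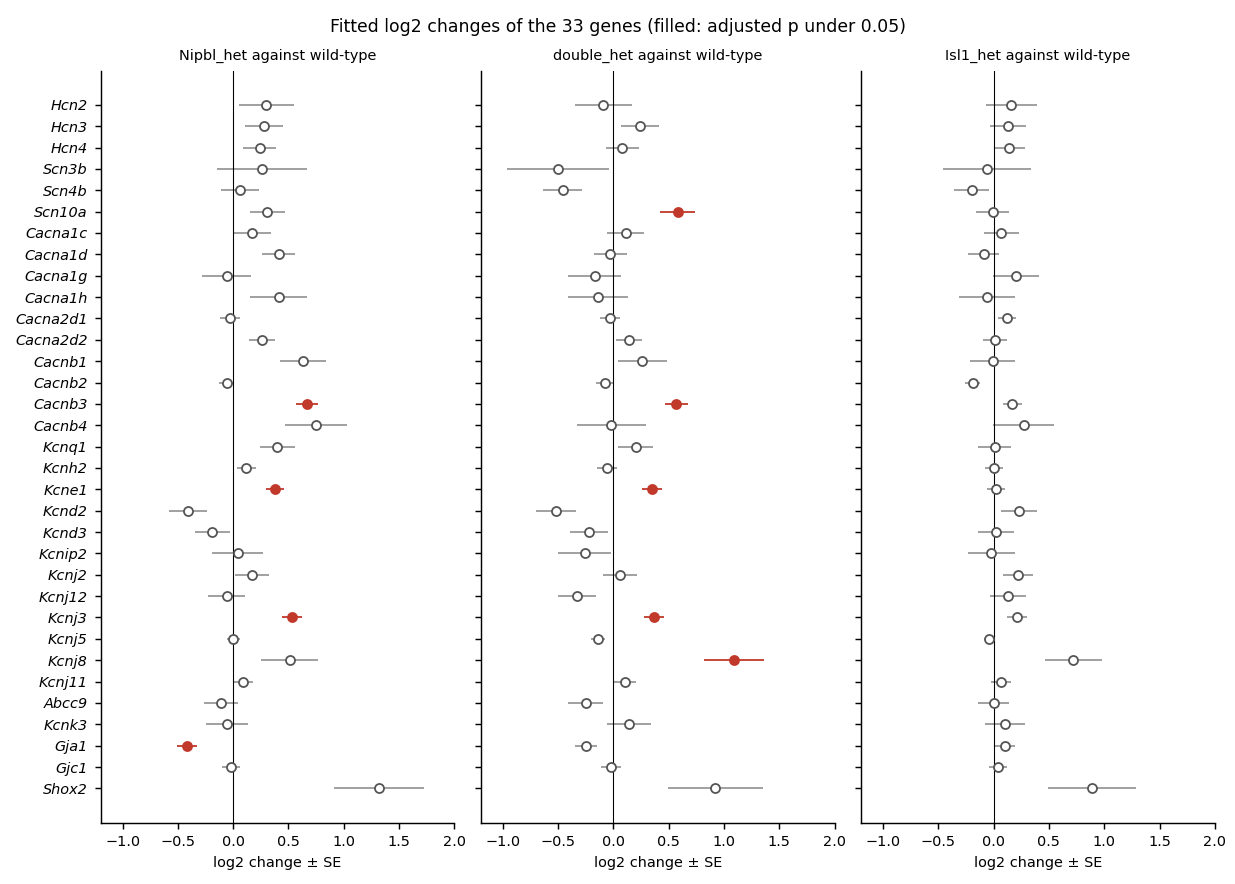
Fitted log2 change with its SE for the 33 genes in Nipbl_het, double_het and Isl1_het against wild-type (9, 9, 9 and 10 libraries, set number as covariate), ordered by role. The double_het library of set 7 is fitted exactly by its own term, so 8 double_het libraries inform the change. Filled red points passed an adjusted p of 0.05: 4 genes in Nipbl_het, 5 in double_het and 0 in Isl1_het.

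The stretch around the transcription start is shown next for each gene that moved in any comparison and has an entry, so that the genes that rose can be set beside those that fell. The sequences are from RefSeq on GRCm38.p6 and run from 250 bases before to 50 bases after the start, on the strand of the gene. Entries were present for 24 of the 33 members, with 32 start sites among them, and there was none for Kcne1. Capitals mark GC boxes, the letters GGGCGG read on either strand. Cacnb3 has 2 start sites, at chr15:98632078-98632377 and chr15:98634517-98634816 on the plus strand. Kcnj3 is at chr2:55435720-55436019 (plus), Kcnj8 at chr6:142571565-142571864 (minus), Scn10a at chr9:119718983-119719282 (minus), Gja1 at chr10:56377050-56377349 (plus) and Kcnd2 at chr6:21215096-21215395 (plus).
Cacnb3 upstream start: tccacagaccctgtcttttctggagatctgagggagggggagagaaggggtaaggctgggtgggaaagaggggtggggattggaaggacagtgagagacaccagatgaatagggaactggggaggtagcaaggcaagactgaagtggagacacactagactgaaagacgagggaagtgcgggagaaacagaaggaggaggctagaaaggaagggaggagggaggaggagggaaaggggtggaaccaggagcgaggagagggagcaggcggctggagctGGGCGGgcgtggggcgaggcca
Cacnb3 downstream start: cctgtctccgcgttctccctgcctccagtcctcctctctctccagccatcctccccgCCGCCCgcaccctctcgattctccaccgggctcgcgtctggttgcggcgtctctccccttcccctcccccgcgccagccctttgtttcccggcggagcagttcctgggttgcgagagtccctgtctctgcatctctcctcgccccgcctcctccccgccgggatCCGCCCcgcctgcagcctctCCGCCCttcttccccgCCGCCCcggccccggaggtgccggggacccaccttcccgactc
Kcnj3: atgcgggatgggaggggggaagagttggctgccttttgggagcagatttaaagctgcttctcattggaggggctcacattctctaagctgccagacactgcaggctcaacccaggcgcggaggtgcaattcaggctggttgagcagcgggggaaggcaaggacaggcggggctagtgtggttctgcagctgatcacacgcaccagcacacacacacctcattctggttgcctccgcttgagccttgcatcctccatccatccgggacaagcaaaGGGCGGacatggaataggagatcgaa
Kcnj8: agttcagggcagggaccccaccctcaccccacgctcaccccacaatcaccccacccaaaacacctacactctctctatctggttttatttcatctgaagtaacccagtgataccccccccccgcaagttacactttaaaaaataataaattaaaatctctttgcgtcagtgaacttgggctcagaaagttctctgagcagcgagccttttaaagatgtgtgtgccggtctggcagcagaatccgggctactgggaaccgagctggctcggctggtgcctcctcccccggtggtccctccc
Scn10a: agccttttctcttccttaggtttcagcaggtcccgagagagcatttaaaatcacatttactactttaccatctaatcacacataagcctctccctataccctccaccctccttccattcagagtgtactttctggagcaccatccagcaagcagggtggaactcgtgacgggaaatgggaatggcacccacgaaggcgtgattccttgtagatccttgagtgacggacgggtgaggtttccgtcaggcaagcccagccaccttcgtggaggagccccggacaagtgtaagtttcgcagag
Gja1: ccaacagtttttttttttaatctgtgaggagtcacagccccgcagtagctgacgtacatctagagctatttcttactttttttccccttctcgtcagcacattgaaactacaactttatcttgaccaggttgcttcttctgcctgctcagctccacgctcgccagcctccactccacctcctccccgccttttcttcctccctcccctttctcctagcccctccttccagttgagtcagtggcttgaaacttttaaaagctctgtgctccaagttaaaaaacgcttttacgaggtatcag
Kcnd2: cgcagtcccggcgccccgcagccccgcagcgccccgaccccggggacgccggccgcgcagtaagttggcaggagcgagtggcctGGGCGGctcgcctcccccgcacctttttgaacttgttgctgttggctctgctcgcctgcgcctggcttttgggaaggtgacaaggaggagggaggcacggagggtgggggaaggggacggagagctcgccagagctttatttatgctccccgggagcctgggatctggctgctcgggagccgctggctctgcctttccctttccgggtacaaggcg

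Among genes that rose, the downstream Cacnb3 stretch holds 4 GC boxes, the upstream one 1 and that of Kcnj3 1, while those of Kcnj8 and Scn10a hold none. Among genes that fell, Kcnd2 has 1 and Gja1 none. Over all members, 19 of 32 start sites had a GC box, beside 35.7% of the 32851 promoters of the same length. The promoters compared were not matched for GC content, which had a median of 52.7% over all of them, and some members have several start sites. The CCAAT box (letters CCAAT) was in 8 of 32 member promoters and 37.4% of all, and the TATA box (TATAAA) in 2 of 32 and 13.6% of all. A GATA element (AGATAA) was in 1 of 32, that of Gja1, and in 11.2% of all. The T-box half-site (GGTGTGA) and the homeodomain letters TAATTA were in 0 of 32 member promoters and in 3.98% and 5.29% of all. Both strands were searched, 0 matches of different motifs overlapped in the member promoters, and a match or its absence describes only the letters of this window.

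Cacnb3 (chr15:98630840-98644529 on GRCm38, plus strand) encodes a cytoplasmic beta subunit of voltage-gated calcium channels, which brings the pore to the membrane and tunes its gating. Its level was 22.9 to 31.0 CPM in wild-type (median 26.8), 24.5 to 37.4 in Isl1_het (median 30.2), 28.1 to 56.0 in Nipbl_het (median 37.6) and 30.7 to 48.8 in double_het (median 38.4). In both groups heterozygous for Nipbl, 8 of 9 libraries lay above every wild-type library. The highest Nipbl_het library was replicate 2, the one with the high Nipbl level. Cacnb3 was 1.59-fold higher in Nipbl_het than in wild-type (log2 change 0.67, SE 0.10, adjusted p = 1.05e-04). In double_het it was 1.49-fold higher than in wild-type (0.57, SE 0.10, adjusted p = 6.38e-04) and 1.32-fold higher than in Isl1_het (0.41, SE 0.10, adjusted p = 0.0426). Within sets 2, 5 and 6 the Nipbl_het libraries exceeded wild-type by 0.90, 0.62 and 0.33 on the log2 scale, so the sign held in each. A within-set value rests on 1 to 5 libraries a group and can move with 1 of them: the value of 0.33 was 0.17 without wild-type replicate 8 and 0.50 without replicate 6. The call in Nipbl_het was kept when any of the 37 libraries was left out in turn, with log2 changes of 0.60 to 0.73, and the double_het call was lost only without set 2 among the alternatives (0.46, adjusted p = 0.0820). The call against Isl1_het was lost under 6 of 11 alternatives: without a set term (0.30, adjusted p = 0.288), with a replicate block, with no filter on low counts and without set 1, 2 or 5 (0.30, adjusted p = 0.663, without set 2). It was also lost on removal of any of 16 single libraries (wild-type 1, 2 or 9, Isl1_het 2, 4, 5, 6, 7 or 9, Nipbl_het 3, double_het 3, 4, 5, 6, 8 or 9), with log2 changes of 0.35 to 0.44 and an adjusted p of at most 0.131.

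The other calcium channel beta and alpha2-delta subunits did not pass in any of the comparisons with all libraries. Cacnb1 had a log2 change of 0.63 in Nipbl_het (SE 0.21, adjusted p = 0.124), and its levels there were 5.12 to 25.3 CPM, where the second highest library stood at 8.66. The value of 25.3 CPM belongs to replicate 2. Without that library the Cacnb1 change was 0.27 (SE 0.10, adjusted p = 0.186) in Nipbl_het, and the averaged Nipbl effect passed at 0.28 (SE 0.08, adjusted p = 0.0230), where it was 0.45 (SE 0.16, adjusted p = 0.128) with all libraries. Cacnb4 showed 0.75 (SE 0.28, adjusted p = 0.185) in Nipbl_het and -0.02 in double_het, on few reads. Cacnb2, the main cardiac beta subunit, was at 26.3 to 41.0 CPM in wild-type and 26.3 to 52.2 CPM in double_het, with log2 changes of -0.06, -0.08 and -0.19 in Nipbl_het, double_het and Isl1_het. Cacna2d2 was at 147 to 262 CPM in wild-type (median 204), 174 to 262 in Isl1_het (median 198), 175 to 369 in Nipbl_het (median 255) and 152 to 299 in double_het (median 267). Above every wild-type library lay 4 of 9 Nipbl_het and 5 of 9 double_het libraries, but no comparison passed: the log2 changes were 0.26 (adjusted p = 0.277) in Nipbl_het and 0.14 (adjusted p = 0.754) in double_het. Cacna2d1 had a log2 change of -0.03 in both.

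Of the 4 calcium channel pores, 0 passed in any of the 8 comparisons. Cacna1h, a T-type channel of embryonic and pacemaker myocardium, was the most abundant at 13.1 RPKM in wild-type. It was at 65.8 to 178 CPM in wild-type (median 128), 105 to 159 in Isl1_het (median 131), 51.2 to 692 in Nipbl_het (median 148) and 71.1 to 182 in double_het (median 144). The value of 692 CPM was that of Nipbl_het replicate 2, and the next highest library of that group was at 166 CPM. The Cacna1h change in Nipbl_het was 0.41 (adjusted p = 0.471) with that library and 0.02 (adjusted p = 0.986) without it. Cacna1c, the L-type pore of working myocardium, also had its Nipbl_het maximum in replicate 2, at 176 CPM against 105 CPM for the next. Cacna1d, the L-type pore of pacemaker cells, had a log2 change of 0.41 (SE 0.15, adjusted p = 0.151) in Nipbl_het and -0.03 in double_het. Cacna1g, the other T-type pore, showed -0.06 and -0.17.

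**Figure D3:**
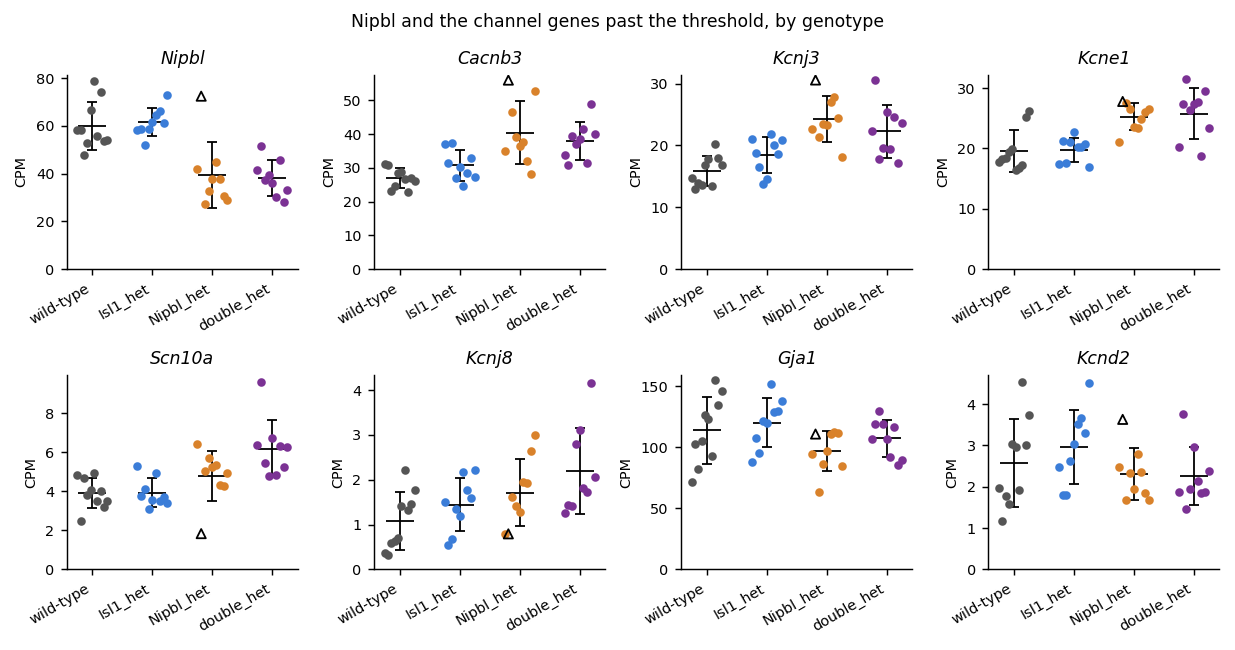
CPM of Nipbl and of the 7 channel genes past the threshold in any comparison, by genotype; each point is a library, bars are mean ± SD (n = 10 wild-type, 9 in each other group) and the open triangle is Nipbl_het replicate 2. Cacnb3 and Kcnj3 lie above every wild-type library in 8 of 9 Nipbl_het libraries, while the groups overlap for Gja1 and Kcnd2.

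Kcnj3 and Kcnj5 encode the subunits of the acetylcholine-activated inward rectifier, through which the vagus slows atrial and nodal cells. Kcnj3 (chr2:55435970-55598145, plus strand) was at 12.9 to 20.3 CPM in wild-type (median 15.8), 13.8 to 21.9 in Isl1_het (median 18.8), 18.2 to 30.6 in Nipbl_het (median 23.5) and 17.2 to 30.6 in double_het (median 22.3). Above every wild-type library lay 8 of 9 Nipbl_het, 5 of 9 double_het and 3 of 9 Isl1_het libraries. Both values of 30.6 CPM were in a replicate 2. That of Nipbl_het is the library with the high Nipbl level, and that of double_het is alone in set 7. Kcnj3 rose 1.44-fold in Nipbl_het (log2 change 0.53, SE 0.09, adjusted p = 9.71e-04) and 1.29-fold in double_het (0.37, SE 0.09, adjusted p = 0.0243). The within-set differences from wild-type were 0.30, 0.71 and 0.47 for Nipbl_het and 0.19, 0.51 and 0.37 for double_het in sets 2, 5 and 6. In set 2 they were 0.18 and 0.07 without wild-type replicate 7, 0.19 for Nipbl_het without its replicate 3 and 0.10 for double_het without its replicate 6. The double_het call was lost without set 1, 5 or 6 (adjusted p of 0.141, 0.355 and 0.113) and the averaged Nipbl call without set 5 (0.31, adjusted p = 0.0731). The double_het call was also lost when wild-type replicate 4 or 5 or double_het replicate 5, 6, 7 or 9 was left out, with log2 changes of 0.32 to 0.42 and an adjusted p of at most 0.0770. Of 7 atrial cardiomyocyte markers, 5 had a positive change in Nipbl_het (median 0.42) and 5 in double_het (median 0.16). Sln, an inhibitor of the sarcoplasmic calcium pump, was called higher in both (1.84, SE 0.40, adjusted p = 0.0109, and 2.23, SE 0.42, adjusted p = 0.00168). The summed level of the 7 was 5125 to 12079 CPM in wild-type (median 7751), 4717 to 11355 in Nipbl_het (median 6338) and 5166 to 12813 in double_het (median 6083). The medians of the sum were thus lower where the median change of the markers was positive, and their part in the Kcnj3 value was not tested. An antisense gene on the opposite strand covers 31.1% of the exon bases of Kcnj3 in GENCODE M21, and without a stated strand setting its reads cannot be told from those of Kcnj3. The partner subunit Kcnj5 was at 96.1 to 139 CPM in wild-type (median 115), 102 to 132 in Isl1_het (median 111), 90.2 to 144 in Nipbl_het (median 132) and 81.7 to 137 in double_het (median 118). Its groups overlapped and its log2 changes were 0.00 in Nipbl_het and -0.14 (adjusted p = 0.306) in double_het.

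Kcnj8, Kcnj11 and Abcc9 encode the ATP-sensitive potassium channel, whose Kcnj8 form is typical of smooth muscle and pericytes. Kcnj8 (chr6:142564837-142571614, minus strand) was low, with 10 to 142 reads per library. Its level was 0.325 to 2.21 CPM in wild-type (median 1.00), 0.537 to 2.22 in Isl1_het (median 1.51), 0.792 to 2.99 in Nipbl_het (median 1.62) and 1.26 to 4.15 in double_het (median 1.82). All 9 double_het libraries were above the wild-type mean, and 3 of them were above every wild-type library. Kcnj8 was 2.13-fold higher in double_het (log2 change 1.09, SE 0.27, adjusted p = 0.0224), and within sets 2, 5 and 6 the difference was 0.61, 1.52 and 0.33. The value of 0.61 was 0.03 without double_het replicate 8 and 1.19 without replicate 6. The log2 changes were 0.51 (adjusted p = 0.352) in Nipbl_het and 0.72 (adjusted p = 0.736) in Isl1_het. The call was lost on removal of wild-type replicate 4 or 5 or of double_het replicate 4, 5 or 8, with an adjusted p of at most 0.0758. It was also lost under 4 of 11 alternatives: without a set term (1.04, adjusted p = 0.0576) and without set 1, 5 or 6 (0.79, adjusted p = 0.564, without set 5). The summed level of 8 smooth muscle and pericyte markers was 3809 to 6888 CPM in wild-type and 3583 to 5059 CPM in double_het. This sum follows its most abundant genes and, in whole hearts, is not a reading of those cell types alone. Of these 8 markers, 6 had a positive change in double_het (median 0.12) and 1, the smooth muscle myosin gene Myh11, was called higher (1.68, SE 0.32, adjusted p = 0.00168). Of 7 epicardial markers, 7 had a positive change in double_het (median 0.51) and 5 were called higher, Tbx18, Wt1, Upk3b, Upk1b and Sema3d. The part of these lists in the Kcnj8 value was not tested. Kcnj11 and Abcc9 did not pass, with log2 changes of 0.10 and -0.25 in double_het, although 5 of 9 Nipbl_het and 4 of 9 double_het libraries were above every wild-type library for Kcnj11. Kcnj2 and Kcnj12, which set the resting potential of working myocardium, had log2 changes of 0.17 and -0.06 in Nipbl_het and of 0.06 and -0.33 in double_het, and none passed. The Kcnj2 change in Nipbl_het was -0.01 without replicate 2.

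Kcne1 (chr16:92345982-92359468, minus strand) encodes a small membrane subunit that joins the Kcnq1 pore to form the slow delayed rectifier. It was at 16.5 to 26.2 CPM in wild-type (median 18.4), 17.0 to 22.7 in Isl1_het (median 20.3), 21.1 to 27.8 in Nipbl_het (median 26.1) and 18.7 to 31.5 in double_het (median 27.4). Of the Nipbl_het libraries 4 of 9, and of the double_het libraries 6 of 9, exceeded every wild-type library, while no Isl1_het library did. The highest Nipbl_het value, 27.8 CPM, was that of replicate 2. Kcne1 rose 1.30-fold in Nipbl_het (log2 change 0.38, SE 0.08, adjusted p = 0.0120) and 1.28-fold in double_het (0.35, SE 0.09, adjusted p = 0.0212). Averaged across the Isl1 genotypes, the Nipbl effect was 0.36 (SE 0.06, adjusted p = 6.80e-04), with 0.33, 0.32 and 0.35 within sets 2, 5 and 6, and this averaged call was kept under all 11 alternatives and all 37 removals of a library. The Nipbl_het call was lost under 3 of 11 alternatives, without set 1, 2 or 6 (adjusted p of 0.0561, 0.0657 and 0.139), and the double_het call under 4 of 11, without set 1, 2, 5 or 6 (0.29, adjusted p = 0.443, without set 5). The double_het call was also lost on removal of wild-type replicate 5 or 8 or double_het replicate 3, 4, 5 or 8, with log2 changes of 0.30 to 0.39 and an adjusted p of at most 0.0604. Without Nipbl_het replicate 2 the difference of double_het from Isl1_het also passed (0.33, adjusted p = 0.0343). The partner Kcnq1 did not pass, with log2 changes of 0.40 (SE 0.16, adjusted p = 0.204) in Nipbl_het and 0.20 (adjusted p = 0.702) in double_het. All 9 Nipbl_het and all 9 double_het libraries were above the wild-type mean of Kcnq1, 9.58 CPM, and replicate 2 of Nipbl_het was the highest at 32.6 CPM. Without it the Kcnq1 change in Nipbl_het was 0.19 (adjusted p = 0.392).

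Kcnh2, the leading member by level, was at 110 to 177 CPM in wild-type (median 153), 126 to 174 in Isl1_het (median 149), 111 to 215 in Nipbl_het (median 179) and 117 to 193 in double_het (median 155). Of the Nipbl_het libraries 5 of 9 and of the double_het libraries 2 of 9 were above every wild-type library. No comparison passed, and the log2 changes were 0.12, -0.06 and -0.00 in Nipbl_het, double_het and Isl1_het. Kcnd2, Kcnd3 and Kcnip2 encode pores and a subunit of the transient outward current. Kcnd2 (chr6:21215503-21729805, plus strand) was at 1.17 to 4.54 CPM in wild-type (median 2.47), 1.79 to 4.50 in Isl1_het (median 3.03), 1.68 to 3.63 in Nipbl_het (median 2.34) and 1.46 to 3.77 in double_het (median 1.95). No library of any group lay outside the wild-type range. With set as a covariate, Kcnd2 was lower in double_het than in Isl1_het (log2 change -0.75, SE 0.18, adjusted p = 0.0360), with -0.48, -0.74 and -1.27 within sets 2, 5 and 6. Over both Isl1 backgrounds together the Nipbl effect was -0.58 (SE 0.13, adjusted p = 0.00719). Both calls rest on the set term: without it the values were -0.40 (adjusted p = 0.688) and -0.28 (adjusted p = 0.243), and both were lost with a replicate block in its place. The call against Isl1_het was lost without any 1 of sets 1, 2, 5 and 6, and the averaged call without set 2 or 6 (adjusted p of 0.115 and 0.110). The call against Isl1_het was also lost on removal of Isl1_het replicate 5, 6, 7 or 9 or double_het replicate 1, 3, 4, 7 or 8, with log2 changes of -0.83 to -0.69 and an adjusted p of at most 0.0905. Within set 5 the difference of Nipbl_het from wild-type was 0.20, which was 0.03 without Nipbl_het replicate 2, 0.33 without Nipbl_het replicate 5, and -0.26 or 0.66 without wild-type replicate 4 or 5. Kcnd3 and Kcnip2 did not pass in any comparison.

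Gja1 (chr10:56377330-56402513, plus strand) encodes the connexin that becomes the main gap junction protein of working ventricular muscle, and Gjc1 a connexin of the early heart and the nodes. Gja1 was at 71.8 to 155 CPM in wild-type (median 114), 88.1 to 152 in Isl1_het (median 122), 63.7 to 113 in Nipbl_het (median 96.8) and 85.9 to 130 in double_het (median 107). All 9 Nipbl_het libraries were below the wild-type mean of 114 CPM, but only 1 was below every wild-type library. With set as a covariate Gja1 was 0.75 times the wild-type level in Nipbl_het (log2 change -0.42, SE 0.09, adjusted p = 0.0134). The averaged Nipbl effect was -0.39 (SE 0.07, adjusted p = 8.98e-04), and the change in double_het was -0.25 (adjusted p = 0.234). Within sets 2, 5 and 6 the Nipbl_het difference from wild-type was -0.73, -0.26 and -0.30, negative in each. The value of -0.26 was -0.12 without wild-type replicate 5, and that of -0.30 was -0.13 without wild-type replicate 8 and -0.47 without replicate 6. The Nipbl_het call was lost under 4 of 11 alternatives: without a set term (-0.23, adjusted p = 0.272), with a replicate block (-0.18, adjusted p = 0.415), without set 2 (-0.28, adjusted p = 0.266) and without set 5 (-0.49, adjusted p = 0.0647). The averaged call was lost under 3 of 11: without a set term (-0.20, adjusted p = 0.161), with a replicate block (-0.16, adjusted p = 0.266) and without set 2 (-0.29, adjusted p = 0.0640). Leaving out any single library changed neither call, and without Nipbl_het replicate 2 the difference of double_het from Isl1_het also passed (-0.35, adjusted p = 0.0479). In Nipbl_het 0 of 9 ventricular cardiomyocyte markers had a positive change (median -0.29), and the transcription factor genes Irx4 and Mycn were called lower (-0.47 each, adjusted p = 0.0326 and 4.21e-04). Of 7 pan-cardiomyocyte markers 0 had a positive change there (median -0.18) and 0 were called. In Isl1_het, where the Gja1 change was 0.10 (adjusted p = 0.872), 1 of 9 ventricular markers (median -0.25) and 1 of 7 pan-cardiomyocyte markers (median -0.17) had a positive change, and 0 were called. In double_het 1 of 9 ventricular markers (median -0.24) and 0 of 7 pan-cardiomyocyte markers (median -0.14) had a positive change. There Irx4, Hey2 and Mycn were called lower. The summed ventricular markers were 13372 to 20654 CPM in wild-type (median 17519) and 12440 to 15578 CPM in Nipbl_het (median 14379), and the part of these markers in the Gja1 value was not tested. Gjc1 was at 50.2 to 82.5 CPM in wild-type (median 65.1), 61.1 to 73.2 in Isl1_het (median 69.9), 43.3 to 77.3 in Nipbl_het (median 65.0) and 54.6 to 70.2 in double_het (median 65.9), with log2 changes of -0.02, -0.02 and 0.04, the first of which was 0.03 without Nipbl_het replicate 2.

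**Figure D4:**
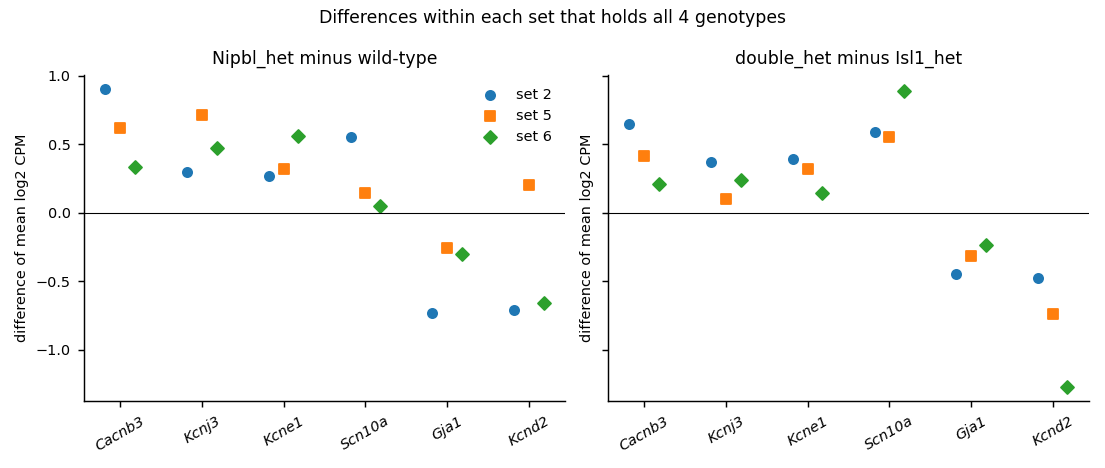
Differences of mean log2 CPM within sets 2, 5 and 6 for 6 of the genes past the threshold, Nipbl_het minus wild-type on the left and double_het minus Isl1_het on the right; each symbol is a set. Cacnb3, Kcnj3, Kcne1 and Scn10a lie above 0 in every set and Gja1 below, but on the left the Scn10a values of 0.14 in set 5 and 0.05 in set 6 turn negative (-0.05 and -0.05) without Nipbl_het replicate 1 or 6, and the Kcnd2 value of 0.20 in set 5 is 0.03 without Nipbl_het replicate 2. The Scn10a value of set 5 is higher without Nipbl_het replicate 2, and that of set 6 is higher without wild-type replicate 6.

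Scn10a (chr9:119608456-119719322, minus strand) encodes a sodium channel pore best known from sensory neurons, and Scn3b and Scn4b are sodium channel beta subunits. Scn10a had 67 to 307 reads per library. It was at 2.47 to 4.92 CPM in wild-type (median 3.92), 3.09 to 5.32 in Isl1_het (median 3.70), 1.83 to 6.42 in Nipbl_het (median 5.03) and 4.80 to 9.58 in double_het (median 6.27). Above every wild-type library lay 7 of 9 double_het and 6 of 9 Nipbl_het libraries, and the low Nipbl_het value of 1.83 CPM was replicate 2. Scn10a was 1.49-fold higher in double_het than in wild-type (log2 change 0.58, SE 0.16, adjusted p = 0.0484), with within-set differences of 0.56, 0.57 and 0.50. In Nipbl_het the log2 change was 0.31 (adjusted p = 0.339), and without replicate 2 it was 0.42 (adjusted p = 0.0384). Without that library the difference of double_het from Isl1_het also passed, at 0.57 (adjusted p = 0.00474). The double_het call against wild-type sat at the threshold: it was lost on removal of any of 32 of the 37 libraries (all but wild-type 6, Isl1_het 6 and Nipbl_het 1, 2 and 8), with an adjusted p of at most 0.130 and log2 changes of 0.54 to 0.61. It was also lost under 7 of 11 alternatives: RLE scaling, no filter and a stricter filter on low counts, and without set 1, 2, 5 or 6 (0.55, adjusted p = 0.356, without set 2). It was kept without a set term, with a replicate block, with DESeq2 and with surrogate variables. Without Nipbl_het replicate 2 it was 0.54 (adjusted p = 0.00377). The averaged Nipbl effect was 0.45 (SE 0.12, adjusted p = 0.0257), and leaving out Isl1_het replicate 7 or 9 took it to an adjusted p of 0.0557 or 0.0547. This averaged call was also lost without set 2 (0.40, adjusted p = 0.345), set 5 (0.48, adjusted p = 0.0642) or set 6 (0.48, adjusted p = 0.0855). The summed level of 9 neuron and neural crest markers was 32.0 to 62.7 CPM in wild-type (median 40.0), 28.6 to 49.2 in Isl1_het (median 37.1), 27.9 to 61.0 in Nipbl_het (median 54.4) and 35.4 to 61.0 in double_het (median 46.8). Of the 7 of these markers that were tested, 4 had a positive change in double_het and 0 were called, while Tubb3, a neuronal tubulin, was called higher in the averaged Nipbl effect (0.49, SE 0.13, adjusted p = 0.0234). Foxd3 was at 0 in at least 1 library of every group, and the part of these markers in the Scn10a value was not tested. Scn4b was at 3.71 to 7.38 CPM in wild-type (median 4.77), 2.96 to 6.22 in Isl1_het (median 4.31), 2.67 to 7.46 in Nipbl_het (median 6.11) and 2.84 to 6.59 in double_het (median 4.19). Of the double_het libraries 4 of 9 were below every wild-type library, and the log2 change was -0.46 (SE 0.18, adjusted p = 0.253).

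Shox2, a homeobox factor that keeps the sinus venosus in a pacemaker state, varied more between wild-type hearts than any other member relative to its mean level. Its wild-type levels ran from 0.845 to 47.8 CPM (median 9.36), and those of Isl1_het from 5.37 to 49.6 CPM (median 20.9). Nipbl_het ranged from 20.5 to 44.4 CPM (median 36.4) and double_het from 7.18 to 42.0 CPM (median 23.5). All 9 Nipbl_het libraries were above the wild-type mean of 13.9 CPM, yet none was above the highest wild-type library. The log2 changes were 1.32 (SE 0.41, adjusted p = 0.0953) in Nipbl_het, 0.92 (SE 0.43, adjusted p = 0.380) in double_het and 0.89 (SE 0.40, adjusted p = 0.835) in Isl1_het. Within sets 2, 5 and 6 Nipbl_het exceeded wild-type by 1.98, 1.90 and 0.62, and Isl1_het by 1.07, 0.85 and 0.94. In set 2 these were 0.85 and -0.06 without wild-type replicate 10 and 3.11 and 2.20 without wild-type replicate 7. In set 5 the Isl1_het value was 0.41 without Isl1_het replicate 6, 1.34 without replicate 7 and 0.46 without wild-type replicate 4. None of the 3 fitted changes passed the threshold, and the Shox2 interaction of -1.29 (SE 0.57) had an adjusted p of 0.999.

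Among wild-type hearts, Shox2 was at 0.845 to 8.84 CPM in set 1 (n = 3), 2.03 to 47.8 in set 2 (n = 3), 5.74 to 9.89 in set 5 (n = 2) and 23.8 to 28.0 in set 6 (n = 2). The 6 other sinoatrial and sinus horn markers, counted without Shox2, Hcn4 and Isl1, summed to 184 to 286 CPM in wild-type (median 211), and the highest sum was in replicate 7, which also had the highest Shox2. In Nipbl_het they summed to 176 to 311 CPM (median 285), with the lowest in replicate 2, in double_het to 214 to 287 CPM (median 260) and in Isl1_het to 217 to 288 CPM (median 232). The part of these sums in the Shox2 values was not tested.

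Hcn4, the main pacemaker channel, did not pass in any comparison. It was at 51.5 to 102 CPM in wild-type (median 65.7), 58.9 to 99.6 in Isl1_het (median 78.5), 46.1 to 115 in Nipbl_het (median 81.3) and 58.5 to 105 in double_het (median 75.4). The Nipbl_het libraries lay on both sides of the wild-type range, with 3 above it and 2 below it, one of which was replicate 2 at 51.4 CPM beside a wild-type minimum of 51.5. The log2 changes of Hcn4 were 0.24 (SE 0.15, adjusted p = 0.460), 0.08 and 0.14 in Nipbl_het, double_het and Isl1_het, the first being 0.30 (adjusted p = 0.293) without replicate 2. Within sets 2, 5 and 6 the Nipbl_het difference was 0.57, 0.24 and -0.28. Single libraries carry the latter pair: with 1 library of the set left out, the value ran from -0.05 (without wild-type replicate 4) to 0.54 (without wild-type replicate 5) in set 5, being 0.48 without Nipbl_het replicate 2, and from -0.58 (without Nipbl_het replicate 6) to 0.08 (without Nipbl_het replicate 8) in set 6. Hcn2 and Hcn3 were minor members at 0.260 and 0.213 RPKM in wild-type and did not pass in any comparison. Kcnk3, a tandem-pore background potassium channel, was at 33.8 to 73.2 CPM in wild-type (median 54.1), 41.3 to 79.0 in Isl1_het (median 58.7), 12.4 to 76.1 in Nipbl_het (median 59.8) and 43.6 to 76.5 in double_het (median 63.9). Its log2 changes were -0.06, 0.14 and 0.10, and the value of 12.4 CPM was that of Nipbl_het replicate 2, where the next lowest library was at 51.3 CPM. Without that library the Nipbl_het change was 0.08 (SE 0.12, adjusted p = 0.860), and neither value exceeds its SE.

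**Figure D5:**
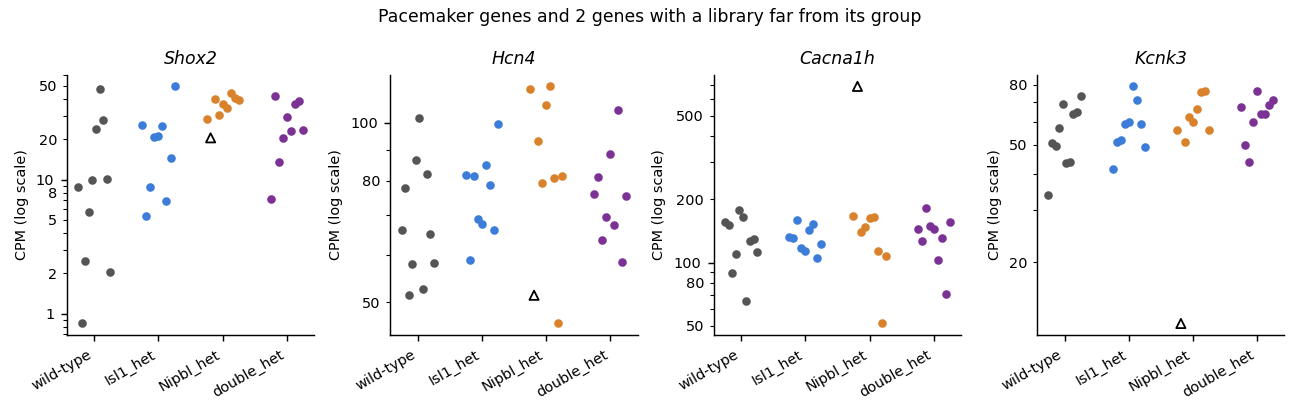
CPM on a log scale of Shox2, Hcn4, Cacna1h and Kcnk3, by genotype, each point a library (n = 10 wild-type, 9 in each other group) and the open triangle Nipbl_het replicate 2. Shox2 spans 0.845 to 47.8 CPM in wild-type alone, and replicate 2 stands at 692 CPM for Cacna1h and 12.4 CPM for Kcnk3.

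Of 81 further genes of the same systems, 74 were tested. They were other channel subunits, other cardiac connexins, channel partners and conduction system transcription factors. In Nipbl_het 2 of the 74 rose (1.20% of all genes did) and 1 fell (0.518%). Those that rose were Isl1 (log2 change 0.79, SE 0.19, adjusted p = 0.0252) and Tmem38a, a counter-ion channel of the sarcoplasmic reticulum (0.30, SE 0.07, adjusted p = 0.0286). Hopx, a homeodomain-only protein with a role in conduction, fell (-0.37, SE 0.09, adjusted p = 0.0304). In double_het 1 rose (1.77% of all genes did) and 2 fell (0.824%). Tbx18, a factor of sinus horn and epicardium, rose (0.38, SE 0.09, adjusted p = 0.0186), and Popdc3, a cAMP-binding membrane protein (-0.41, SE 0.08, adjusted p = 0.00340), and Hopx (-0.35, SE 0.10, adjusted p = 0.0458) fell. The averaged Nipbl effect called 4 of the 74 higher (2.67% of all genes), among them the neuronal calcium channel pore Cacna1b (0.51, SE 0.15, adjusted p = 0.0453) and the calcium-activated potassium channel Kcnn1 (0.45, SE 0.13, adjusted p = 0.0432), and 2 lower (1.36%). In Isl1_het 0 of 74 passed, as did 0% of all genes. The median log2 change of the 74 was 0.04 in Nipbl_het, -0.04 in double_het and -0.03 in Isl1_het. The summed epicardial markers, a list that includes Tbx18, were 261 to 463 CPM in wild-type and 519 to 674 CPM in double_het, without overlap, and their part in the Tbx18 value was not tested.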

How the data were processed

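Mouse embryonic hearts (37 libraries) at stage E10.5 were sequenced as paired-end total-RNA libraries, per the labels' protocols. The authors deposited raw read counts per gene symbol. The submitters' processing notes name STAR, featureCounts and GRCm38/mm10, and the annotation and strand setting are not given in the sources used here. Without strand, reads of antisense partners cannot be told apart: 13 members share exon bases with another gene, 3 over 10% of them (Hcn3, Cacnb4, Kcnj3). Libraries were grouped by title, and none of the 153 pairs of libraries of the same genotype agreed within sampling noise.

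Counts were filtered (filterByExpr, minimum count 10, minimum total 15; 15046 genes), scaled by TMM and fitted with edgeR 4.0.16's quasi-likelihood test in R 4.3.3, with genotype and set as terms and all libraries in one fit. Set 7 holds 1 double_het library, which its own term fits exactly, leaving 8 double_het libraries to inform the comparisons. Tests were two-sided, with a Benjamini-Hochberg threshold of 0.05 across the 15046 genes. The SE of an edgeR change was worked back from the test, as the absolute log2 change over the square root of its F value. Log2 CPM used a prior count of 2. Alternatives were no set term, a replicate block, DESeq2 1.42.0, RLE scaling, other filters, 2 surrogate variables (sva 3.50.0) and leaving out sets or libraries. The fit was also run on counts simulated without a set effect or an outlying library, so that run does not bear on those features of the data. The members and lists were chosen with earlier results of these data known. Levels in every genotype are given for members past the threshold, the most abundant of each role class, Hcn4 and Shox2; other members are named by level and change, and genes of the other lists where past the threshold. Members with a library far from its group were named after their values were seen. One marker gene of the lists is not reported here.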

Additional observations from a re-analysis of the deposited data

Results flagged for a closer look

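For each member and genotype, the highest and lowest library were compared with their nearest neighbour by Dixon's criterion, which chance meets in about 1 of 20 groups. Of 132 groups 16 met it, and 8 of these were in Nipbl_het replicate 2, a library with a Nipbl level that goes against its label. In that library Cacna1h stood at 692 CPM (next highest 166), Cacna1c at 176 CPM (next 105), Cacnb1 at 25.3 CPM (next 8.66), Kcnq1 at 32.6 CPM (next 13.9) and Kcnj2 at 16.8 CPM (next 8.86). The same library was low for Kcnk3 at 12.4 CPM (next lowest 51.3), Gjc1 at 43.3 CPM (next 61.8) and Scn10a at 1.83 CPM (next 4.26).

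Nipbl_het replicate 9 was high for Cacna1g at 5.72 CPM (next 3.05) and Scn3b at 1.04 CPM (next 0.561), and its 7 foregut and liver markers summed to 372 CPM, where the median of its group was 4.61 CPM. Nipbl_het replicate 5 was high for Hcn3 at 1.81 CPM (next 1.27), and double_het replicate 2, the only library of set 7, for Scn10a at 9.58 CPM (next 6.73). Wild-type replicate 7 was low for Cacnb2 at 26.3 CPM (next 35.7) and Kcnj11 at 25.7 CPM (next 31.3). Isl1_het replicate 9 was low for Kcnip2 at 0.271 CPM (next 0.679) and high for Shox2 at 49.6 CPM (next 25.5).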

How the results depend on the processing

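Removal of Nipbl_het replicate 2 is counted here with the 11 other alternatives, which leaves 36 removals of a library. Of 17 called member changes, all 204 values under the alternatives kept their direction and 155 stayed past the threshold. Among 612 values with a library left out, 76 calls were lost and 0 changed sign; these were chosen after seeing the data. Cacnb3 and Kcne1 in the averaged Nipbl effect, and Cacnb3 and Kcnj3 in Nipbl_het, kept their calls under every alternative. These totals cover the 16 members named with levels in every genotype (128 changes). Changes smaller than their SE were given no direction, and 60 of their 564 values had another sign. Of 768 values of other uncalled changes, 5 had another sign: Cacna1h in Nipbl_het without set 5 (-0.06), Cacna2d2 in double_het without set 5 (-0.01), and Kcnj5 in the averaged Nipbl effect without a set term (0.05), with a replicate block (0.03) and without set 2 (0.01). For the other members, removal of Nipbl_het replicate 2, chosen after seeing the data, turned the sign of Cacnb1 in double_het against Nipbl_het (0.05), in the interaction (0.03) and in the averaged Isl1 effect (0.04), of Kcnq1 in double_het against Nipbl_het (0.06) and of Kcnj2 in Nipbl_het (-0.01); 0 of these passed. The cause was not tested.

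Each count of members called is followed by the share of all genes called in the same fit. With 2 surrogate variables added, the counts were 9 (8.85%) in Nipbl_het and 10 (11.8%) in double_het against wild-type, 6 (5.07%) in double_het against Isl1_het, 1 (0.0864%) against Nipbl_het and 5 (1.62%) for the averaged Isl1 effect. Without set 2 they were 2 (0.207%) in Nipbl_het and 2 (0.753%) in double_het against wild-type, 0 (0.147%) in double_het against Isl1_het and 3 (1.01%) for the averaged Nipbl effect. Double_het against wild-type gave 1 without set 1 (1.55%), 1 without set 5 (0.441%) and 1 without set 6 (1.47%). Double_het against Isl1_het gave 5 with DESeq2 (1.57%), 1 with no filter (0.563%), 0 without set 1 (0.487%), 0 without set 5 (0.0789%) and 1 without set 6 (0.528%). Dropping a set also drops libraries.

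Leaving out single libraries gave 4 to 5 members for Nipbl_het against wild-type (1.11 to 2.72% of all genes), 1 to 5 for double_het against wild-type (1.62 to 5.57%), 0 to 5 for double_het against Isl1_het (0.484 to 2.40%), 5 to 7 for the averaged Nipbl effect (2.89 to 6.93%) and 0 to 0 for the other 4 comparisons (at most 0.486%). Double_het against wild-type fell to 1 without wild-type replicate 5 or double_het replicate 5, to 2 without double_het replicate 4 or 8, and to 3 without wild-type replicate 4 or 8 or double_het replicate 3, 6, 7 or 9. Double_het against Isl1_het gave 5 without Nipbl_het replicate 2. It gave 0 without Isl1_het replicate 5, 6, 7 or 9 or double_het replicate 3, 4 or 8. It gave 1 without wild-type replicate 1 or 9, Isl1_het replicate 2 or 4, Nipbl_het replicate 3 or double_het replicate 5, 6 or 9.

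The replicate numbers are not stated to pair embryos, and 12 of 54 same-numbered pairs correlated above 0.1 in their deviations from the group means (median 0.03). With the number as a block in place of the set, 4, 5, 0, 2, 0, 0, 7 and 0 members were called in the 8 comparisons, in the order Nipbl_het, double_het and Isl1_het against wild-type, double_het against Isl1_het and against Nipbl_het, interaction, averaged Nipbl and averaged Isl1. The shares of all genes were 2.36%, 4.05%, 0%, 1.00%, 0%, 0%, 6.60% and 0.0598% in the same order. Of 36 libraries, 3 correlated best with their own number. Read depth limits Scn3b, Cacnb4 and Kcnip2, which had medians of 11, 19 and 24 reads.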

Other observations

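Blood RNA differed between hearts. The 9 erythroid markers summed to 1839 to 105367 CPM in wild-type, 811 to 47276 in Isl1_het, 482 to 22970 in Nipbl_het and 1287 to 53563 in double_het. The most erythroid library of a group was the lowest of its group for 13 of the 33 members in wild-type (replicate 7), 18 in double_het (replicate 8), 6 in Isl1_het (replicate 4) and 0 in Nipbl_het (replicate 7, the highest for 3). Other libraries with less blood RNA were more often lowest in the latter pair of groups: Isl1_het replicate 2 (14131 CPM) for 8 members and replicate 1 (23864 CPM) for 7, and Nipbl_het replicate 8 (9969 CPM) for 11. Double_het replicate 8 was the highest of its group for Cacnb3 (48.8 CPM) and Kcnj8 (4.15 CPM). The least erythroid library, Nipbl_het replicate 2, was the highest of its group for 17 members and the lowest for 7. The part of blood RNA in these values was not tested.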
